A study of Homo sapiens with 4 samples.

Results

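The J-domain co-chaperones are the genes named DNAJA, DNAJB or DNAJC and a number. All protein-coding genes with such a name were taken, which gave 40 of the 26348 genes in the table: 3 of class A, 11 of class B and 26 of class C. Their transcripts were measured by RNA sequencing in 2 human cell lines, 293T, an embryonic kidney line labelled renal epithelial, and A549, labelled non-small cell lung cancer. In each line one group was kept for 2 h in a magnetic field (exposed) and the other without a field (control), and each of the 4 groups has 3 libraries. Both lines are established cultures, no allele or agent beyond the field was named, and field strength, frequency and culture temperature are not given in the sources used here. No label ties the 3 libraries of a group to separate cultures, and p-values therefore cover spread among libraries alone, technical or not.

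J-domain proteins bring substrates to HSP70 chaperones and switch on their ATPase through the J domain, which carries a conserved histidine, proline and aspartate motif. Class A proteins add a glycine and phenylalanine rich stretch and a zinc-binding region, class B proteins have the glycine and phenylalanine rich stretch without the zinc-binding region, and class C proteins share little beyond the J domain. Members work in the cytosol and nucleus, the endoplasmic reticulum (ER), mitochondria and vesicle traffic, so each compartment's HSP70 has its own partners. Some cytosolic members are classical targets of heat shock factor, and some ER members are targets of the unfolded protein response.

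Values are FPKM, fragments scaled to gene length and to the counted fragments of the library, so levels of different genes can be compared per length. Each library held 37171616 to 38883963 counts, as recovered from the FPKM, and the 40 genes together took 103768 to 209622 of them. A log2 fold change is a difference of group means of log2(FPKM + 1), which understates changes of low genes, and a fold is a ratio of mean FPKM. Tests were limma fits over all 13811 genes with at least 0.5 FPKM in at least 3 libraries, with Benjamini-Hochberg adjustment over all of them and a threshold of 0.05. Of the 40 members 37 were tested. DNAJB7, DNAJB13 and DNAJC15 were below the filter, with at most 0.0101, 0.102 and 0.456 FPKM in any library, and DNAJC28 passed only through 293T. The other 36 tested members had at least 0.5 FPKM in all 12 libraries. In 23 of the 40 members the gene's span in RefSeq (GRCh38.p14) overlaps another gene, among them DNAJB1 (TECR) and DNAJB4 (FUBP1), and 9 have pseudogenes of the same name, among them DNAJB6 with 8 and DNAJA1 with 6. The strand setting of the counting is not known here, and reads of overlapping genes may be mixed in those values.

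Checks of the lines by marker genes showed all 5 epithelial markers and all 6 genes known of A549 at a mean of at least 1 FPKM in both A549 groups. The surfactant genes SFTPA1 and SFTPB were listed at 0 in both A549 groups, and of 5 lung alveolar markers 1 reached 1 FPKM in exposed A549. In 293T the epithelial genes KRT8 and KRT18 were above 1 FPKM, EPCAM, CDH1 and KRT19 were not, and of 6 kidney epithelial markers only LHX1 was. Of these kidney markers, CDH16 reached 1 FPKM in both A549 groups and LHX1 in A549 controls. All 5 genes known of 293T reached 1 FPKM in both 293T groups, and 4 of them (NEFL, INA, LIN28B and SOX2) did in both A549 groups. Their sum was 100 to 105 FPKM in 293T controls and 18.6 to 19.1 FPKM in A549 controls. Of the genes known of A549, ALDH1A1 reached 1 FPKM in both 293T groups and AKR1B10 in exposed 293T. In both lines, replicate 3 of the exposed group had the lowest level among the 3 exposed libraries of each of the 8 members with the largest rise. Without replicate 3 of both exposed groups, 12 members rose and 7 fell in A549, and 12 rose and 10 fell in 293T, beside 13 and 8, and 11 and 9, with all libraries.

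Promoter sequences are shown first for 4 members that rose in both lines, because heat shock factor binds repeats of the letters GAA and TTC, and for DNAJB9, an ER member that also rose. RefSeq promoter windows (GRCh38.p14), from 250 bases before to 50 bases from the gene start on, matched 37 of the 40 members with 47 windows, since 8 members have more than 1 start. Both strands were searched for the 2-unit heat shock elements GAANNTTC and TTCNNGAA and for the 3-unit element, in which both share their TTC (GAA, NN, TTC, NN, GAA). Capitals mark these matches and each sequence runs 5′ to 3′ on the gene's strand.
DNAJA1, chr9:33025023-33025322, plus strand: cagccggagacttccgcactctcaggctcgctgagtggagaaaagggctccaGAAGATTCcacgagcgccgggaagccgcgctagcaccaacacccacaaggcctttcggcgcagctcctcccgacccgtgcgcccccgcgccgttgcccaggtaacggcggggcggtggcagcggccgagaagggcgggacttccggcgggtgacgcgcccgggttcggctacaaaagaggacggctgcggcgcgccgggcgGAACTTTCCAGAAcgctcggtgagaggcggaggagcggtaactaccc
DNAJB6, chr7:157336754-157337053, plus strand: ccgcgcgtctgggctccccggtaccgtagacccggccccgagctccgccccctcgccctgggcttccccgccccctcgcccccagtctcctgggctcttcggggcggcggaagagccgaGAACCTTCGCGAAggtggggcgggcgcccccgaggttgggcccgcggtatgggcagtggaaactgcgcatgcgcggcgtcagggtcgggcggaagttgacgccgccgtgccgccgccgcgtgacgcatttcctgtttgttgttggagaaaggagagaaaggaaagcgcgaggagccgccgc
DNAJB1, chr19:14518348-14518647, minus strand, 1 of 3 windows: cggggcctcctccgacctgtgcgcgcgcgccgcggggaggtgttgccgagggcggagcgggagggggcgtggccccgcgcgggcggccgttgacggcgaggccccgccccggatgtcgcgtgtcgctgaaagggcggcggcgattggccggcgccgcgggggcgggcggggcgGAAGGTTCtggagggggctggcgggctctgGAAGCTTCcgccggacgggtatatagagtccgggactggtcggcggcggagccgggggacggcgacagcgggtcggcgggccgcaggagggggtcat
DNAJB4, chr1:78004689-78004988, plus strand, 1 of 2 windows: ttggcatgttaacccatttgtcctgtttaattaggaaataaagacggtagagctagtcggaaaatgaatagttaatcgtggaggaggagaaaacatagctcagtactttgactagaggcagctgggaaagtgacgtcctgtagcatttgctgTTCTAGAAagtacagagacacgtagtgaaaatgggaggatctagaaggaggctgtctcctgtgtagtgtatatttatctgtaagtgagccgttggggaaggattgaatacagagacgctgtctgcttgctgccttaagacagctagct
DNAJB9, chr7:108569624-108569923, plus strand: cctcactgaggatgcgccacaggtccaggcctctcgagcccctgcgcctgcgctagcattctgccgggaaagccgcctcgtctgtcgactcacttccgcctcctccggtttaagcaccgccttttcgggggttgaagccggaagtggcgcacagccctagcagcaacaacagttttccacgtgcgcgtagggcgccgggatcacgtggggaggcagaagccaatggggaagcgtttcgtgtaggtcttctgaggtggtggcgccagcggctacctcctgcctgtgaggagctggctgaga

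The 3-unit element was found in 2 of the 47 member windows, those of DNAJA1 and DNAJB6, and in 172 of all 35116 promoter windows (0.490%). It began at base 4 of the DNAJA1 transcript and at base -131 of DNAJB6, counted from the first transcribed base. At least 1 of the 2-unit elements was present in 8 of the 47 member windows (17.0%), which belong to 7 members, and in 13.5% of all windows, so the share is near that of all promoters. DNAJB1 had 2 of them in the window shown, beginning at -77 and -47, and 1 in another of its windows, and DNAJB4 had 1 at -98 in the window shown and none in its other window, at the earlier gene start. The others were DNAJC6, DNAJB7 and DNAJC15. No 2-unit match lay in the windows of DNAJB2, DNAJB9, DNAJB11 or DNAJC3. The ER stress element (CCAAT, any 9 bases, CCACG) was in no member window and in 0.0769% of all windows. The unfolded protein response element TGACGTGG was in the DNAJC10 window, and in 0.729% of all windows, and the C/EBP-ATF element TGATGCAA was in no member window, against 0.866% of all windows. These matches describe letters in the windows, and binding was not measured.

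Across the 37 tested members, exposed cells of both lines had higher levels of a small set led by class B genes of the cytosol and the ER, while only DNAJC3 of class C had an absolute log2 fold change of at least 0.5. In A549, 13 members rose and 8 fell, so 56.8% of the tested members passed the threshold against 40.2% of all genes tested (13.3% higher and 26.9% lower). In 293T, 11 rose and 9 fell, 54.1% of the members against 38% of all genes (13.7% higher and 24.2% lower). By class, 6 of 9 tested class B members rose in A549 and 6 of 9 in 293T, with median log2 fold changes of 0.81 and 0.48, beside medians over all genes of -0.037 and -0.031. Of the 3 class A members 1 rose in each line, with medians of -0.014 and -0.0093, whose sign turned under median centring (0.041 and 0.018), under quantile normalization in 293T (0.011) and with single libraries left out (up to 0.0041 in A549 and 0.012 in 293T). Of 25 class C members 6 rose and 7 fell in A549 (median -0.090), and 4 rose and 9 fell in 293T (median -0.070). With the added demand of an absolute log2 fold change of at least 0.5, 8 members were higher and 0 lower in A549, where 2% of all genes were higher and 2.28% lower. In 293T 4 were higher and 0 lower, beside 1.12% and 1.31% of all genes. In bulk RNA, a change in the share of responding cells and a change in RNA per cell cannot be told apart. The balance of directions followed the scaling: in A549 it was 14 higher and 4 lower with median centring, 14 and 5 with quantile normalization, and 11 and 12 with mitochondrially encoded genes left out of the library sum. Over all genes it was 1837 higher and 3711 lower as fitted in A549, and 2695 and 2525 with median centring. In 293T it was 12 and 5 after quantile normalization, with all genes at 2403 higher and 2620 lower against 1897 and 3346 as fitted.

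**Figure D1:**
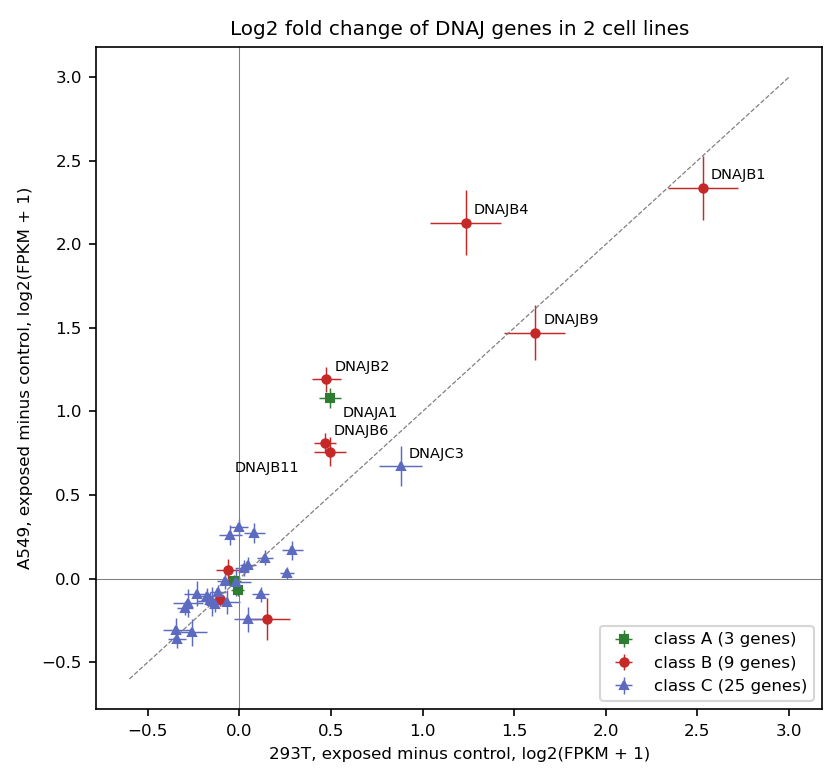
Log2 fold change on the log2(FPKM + 1) scale of the 37 tested DNAJ genes, exposed minus control, in 293T (x axis) and A549 (y axis), with bars of 1 limma standard error and a dashed line of equal change. The class B genes DNAJB1, DNAJB4 and DNAJB9 lie farthest from 0 in both lines, and most class C genes lie close to 0.

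Of the 37 tested members the same 10 rose in both lines, where 6.32% of all genes did: DNAJA1, DNAJB1, DNAJB2, DNAJB4, DNAJB6, DNAJB9, DNAJB11, DNAJC2, DNAJC3 and DNAJC25. The same 6, all class C, fell in both, a share near the 14.2% of all genes: DNAJC11, DNAJC14, DNAJC17, DNAJC22, DNAJC27 and DNAJC30. Another 12 passed in neither line, and 0 members passed in opposite directions, beside 1.11% of all genes. The group means compared in the 2 lines share no libraries. The fit takes 1 estimate of each gene's spread from all 12 libraries, so the calls in the 2 lines are not independent.

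Among cytosolic members of class A and B, DNAJB1, the main stress-inducible partner of cytosolic HSP70, had the largest change. Its exposed A549 libraries were at 264, 470 and 244 FPKM and the controls at 58.4, 62.1 and 61.9 FPKM. In exposed 293T DNAJB1 was at 291, 236 and 206 FPKM against 41.3, 41.3 and 40.8 FPKM in controls. All exposed libraries lay above all controls of their line, and replicate 2 stood highest in A549. The mean rose 5.36-fold in A549 (log2 fold change 2.34, SE 0.19, adjusted p = 4.90e-06) and 5.95-fold in 293T (2.53, SE 0.19, adjusted p = 9.56e-06). Of all 13811 genes tested its log2 fold change ranked 5 from the top in A549 and 4 in 293T. DNAJB4, a close relative of DNAJB1, was at 27.6, 41.8 and 25.1 FPKM in exposed A549 and 7.75, 5.64 and 5.57 FPKM in controls, a 4.99-fold rise (log2 fold change 2.13, SE 0.20, adjusted p = 9.87e-06). In 293T it was at 21.3, 17.3 and 12.6 FPKM against 5.89, 6.93 and 6.80 FPKM (2.61-fold, log2 fold change 1.23, SE 0.20, adjusted p = 5.72e-04). Its groups did not overlap in either line. Of all genes tested, 49.7% in A549 and 50% in 293T had exposed and control libraries without overlap, in either direction. Of the 37 tested members, 24 in A549 and 26 in 293T did.

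DNAJA1, a class A partner of constitutive HSP70, was the most abundant member in every group. It was at 646, 676 and 561 FPKM in exposed A549 and 290, 306 and 290 FPKM in controls, and at 342, 358 and 316 FPKM against 238, 239 and 242 FPKM in 293T. Its rise was 2.12-fold in A549 (log2 fold change 1.08, SE 0.06, adjusted p = 6.63e-07) and 1.41-fold in 293T (0.49, SE 0.06, adjusted p = 1.29e-04). Among all genes tested in A549, DNAJA1 ranked 6 by p-value and 49 by the size of its rise. DNAJB2, which carries ubiquitin-interacting motifs, was at 17.9, 19.3 and 14.9 FPKM in exposed A549 against 7.13, 7.18 and 6.70 FPKM, and at 9.77, 9.18 and 8.34 FPKM in exposed 293T against 6.41, 6.06 and 6.29 FPKM. It rose 2.48-fold in A549 (log2 fold change 1.19, adjusted p = 1.07e-06) and 1.45-fold in 293T (0.48, adjusted p = 6.71e-04). DNAJB6, a suppressor of polyglutamine aggregation, was at 57.3, 52.2 and 48.8 FPKM against 30.4, 29.9 and 28.5 FPKM in A549, and at 69.0, 72.9 and 62.4 FPKM against 49.4, 49.1 and 48.1 FPKM in 293T. It rose 1.78-fold in A549 (log2 fold change 0.81, adjusted p = 2.50e-06) and 1.39-fold in 293T (0.47, adjusted p = 1.75e-04). The other class A members did not pass in either line: DNAJA2, also cytosolic, had log2 fold changes of -0.067 and -0.0093, and the mitochondrial DNAJA3 of -0.014 and -0.031 in A549 and 293T. DNAJB5, another relative of DNAJB1, was between 1.73 and 2.90 FPKM in all libraries and did not pass (adjusted p = 0.592 in A549 and 0.512 in 293T). So of 7 tested members of this cytosolic and nuclear list 5 rose in each line, where 13.3% of all genes rose in A549 and 13.7% in 293T. DNAJA4 and DNAJB8, also on the list, are not among the 26348 genes with values.

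**Figure D2:**
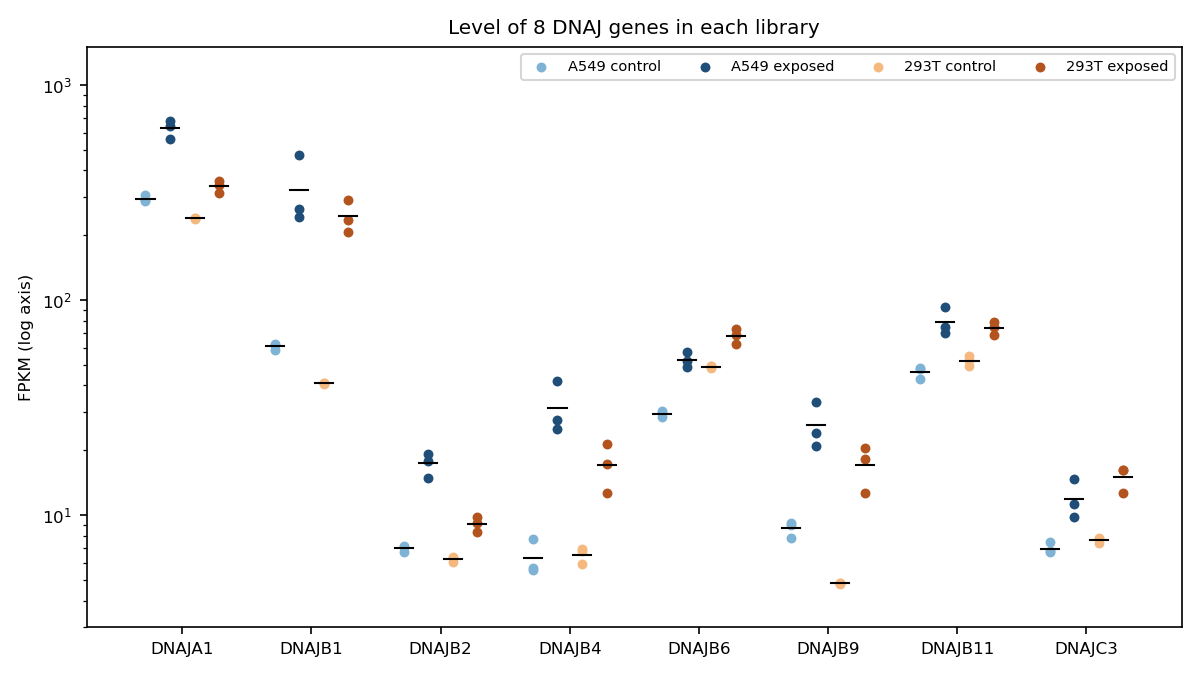
FPKM on a log axis of the 8 members with an absolute log2 fold change of at least 0.5 in A549, with 1 point per library and a black bar at each group's mean. In both lines the exposed points of each gene lie above its control points, and DNAJB1 shows the widest gap. Exposed and control libraries were without overlap, in either direction, in 49.7% of all genes tested in A549 and 50% in 293T.

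Among ER members, which work with the ER HSP70 BiP (HSPA5), the largest rises were those of DNAJB9, DNAJC3 and DNAJB11. DNAJB9, which delivers substrates for degradation and binds the stress sensor IRE1, was at 33.6, 24.1 and 21.0 FPKM in exposed A549 against 9.19, 7.78 and 9.01 FPKM in controls. In 293T it was at 20.4, 18.2 and 12.6 FPKM against 4.82, 4.85 and 4.76 FPKM. The mean rose 3.03-fold (log2 fold change 1.47, SE 0.17, adjusted p = 4.30e-05) and 3.55-fold (1.61, SE 0.17, adjusted p = 5.26e-05). DNAJC3, which restrains the eIF2alpha kinases PERK and PKR, was at 14.7, 11.2 and 9.74 FPKM in exposed A549 against 7.47, 6.70 and 6.76 FPKM, and at 16.2, 16.1 and 12.6 FPKM in exposed 293T against 7.70, 7.41 and 7.78 FPKM. Its rise was 1.70-fold in A549 (log2 fold change 0.67, SE 0.12, adjusted p = 8.18e-04) and 1.96-fold in 293T (0.88, SE 0.12, adjusted p = 2.34e-04). DNAJB11, which binds unfolded chains in the ER lumen, was at 92.4, 75.1 and 70.5 FPKM in exposed A549 against 42.8, 48.2 and 47.6 FPKM, and at 74.5, 78.8 and 68.7 FPKM in exposed 293T against 49.1, 54.7 and 52.6 FPKM. It rose 1.72-fold (adjusted p = 4.80e-05) and 1.42-fold (adjusted p = 0.00106). DNAJC25 rose 1.15-fold in A549 and 1.26-fold in 293T, and its span is shared with the readthrough gene DNAJC25-GNG10. The A549 call of DNAJC25 was lost in 9 of 24 alternatives (adjusted p from 0.00540 to 0.137). In A549 alone DNAJC16 passed (4.95 to 5.41 FPKM against 3.88 to 4.39 FPKM), in 293T alone DNAJC1, a translocon-linked member (12.3 to 12.6 FPKM against 10.0 to 10.4 FPKM). DNAJC10, a disulfide reductase, and DNAJB14 passed in neither line, and the first A549 control of DNAJB14 stood at 8.93 FPKM, above every other library of that gene. DNAJB12, an ER membrane member, fell in A549 (log2 fold change -0.12, adjusted p = 0.0270), a call lost in 7 of 24 alternatives, and DNAJC18 fell in 293T (-0.28, adjusted p = 0.0187), lost in 4 of 24. Of 10 ER members 5 rose and 1 fell in each line (of all genes 13.3% rose and 26.9% fell in A549, and 13.7% and 24.2% in 293T), with medians of 0.10 in A549 and 0.21 in 293T.

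The exposed libraries of A549 ranked 4 of 5 cytosolic members differently from the ER members, while the cytosolic DNAJB6 peaked with the ER members. In A549 DNAJA1, DNAJB1, DNAJB2 and DNAJB4 were highest in exposed replicate 2, whereas DNAJB6 and the ER members DNAJB9, DNAJB11 and DNAJC3 were highest in exposed replicate 1. DNAJB1 was 2.93 above the control mean on the log2(FPKM + 1) scale in replicate 2 and 2.10 in replicate 1, while DNAJB9 was 1.38 above it in replicate 2 and 1.84 in replicate 1. The HSP70 partners showed the same order in these libraries: the cytosolic HSPA1B was 4.24 above control in replicate 2 and 3.96 in replicate 1, and the ER partner HSPA5 was 1.24 in replicate 2 and 1.60 in replicate 1. All 8 members were lowest in A549 exposed replicate 3. In 293T the 4 members with a log2 fold change of at least 0.5 were highest in exposed replicate 1 and lowest in replicate 3. DNAJB2 was also highest in replicate 1 there, whereas DNAJA1, DNAJB6, the ER member DNAJB11 and HSPA5 were highest in replicate 2. The order of these genes in A549 was therefore not seen in 293T. These orders describe single libraries, and no test was made of them.

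**Figure D3:**
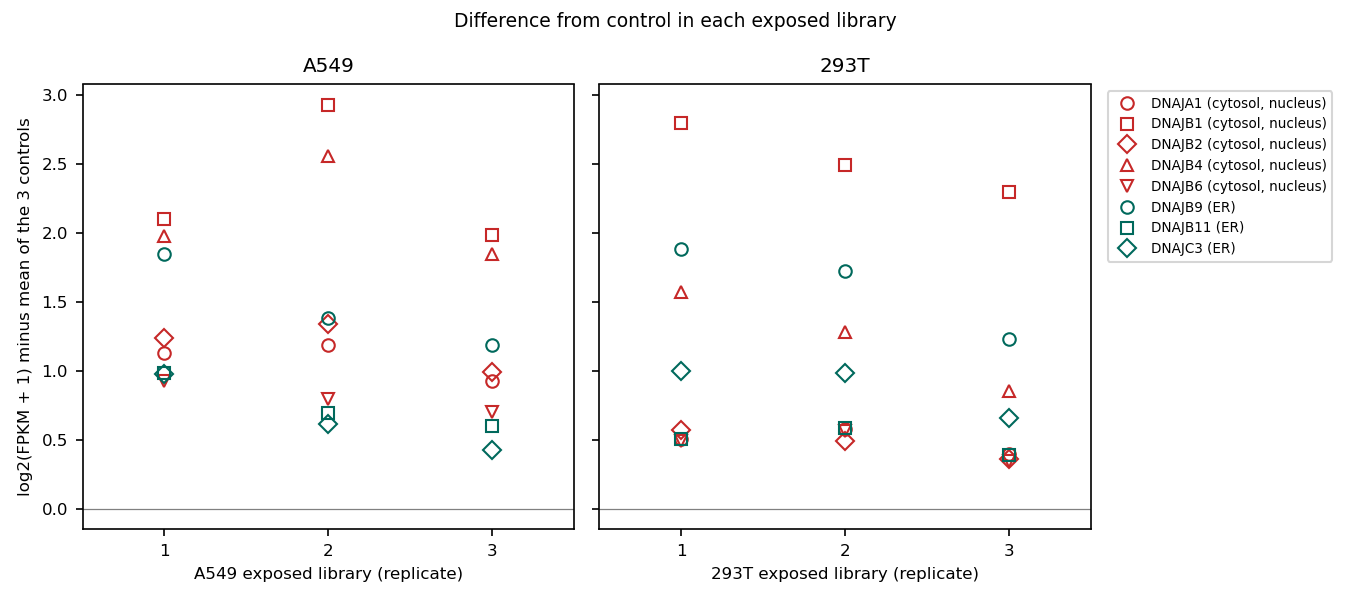
Difference of log2(FPKM + 1) from the mean of the 3 controls of the same line, for 8 members in each exposed library of A549 (left) and 293T (right), red for cytosolic and nuclear members and green for ER members. In A549 DNAJB1 and DNAJB4 peak in replicate 2, the 3 ER members peak in replicate 1, and every symbol is lowest in replicate 3.

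Of 5 mitochondrial members tested, 0 rose and 2 fell in A549, where 13.3% of all genes were higher and 26.9% lower. In 293T 0 rose and 3 fell, beside 13.7% and 24.2% of all genes. The shares that fell, 40% in A549 and 60% in 293T, rest on 5 genes and were not tested. DNAJC30, linked to the respiratory chain, was at 3.54, 3.55 and 3.36 FPKM in exposed A549 against 5.09, 4.42 and 4.81 FPKM, and at 3.31, 3.10 and 3.10 FPKM in exposed 293T against 4.44, 4.22 and 4.20 FPKM. The exposed libraries lay below the controls in each line, by 1.37-fold in A549 (log2 fold change -0.36, SE 0.05, adjusted p = 1.39e-04) and 1.35-fold in 293T (-0.34, SE 0.05, adjusted p = 3.28e-04). Such a lack of overlap, in either direction, was found in 49.7% of all genes tested in A549 and 50% in 293T. DNAJC11, a partner of the cristae-organising complex, was at 19.7, 18.5 and 20.2 FPKM against 22.3, 21.4 and 22.6 FPKM in A549, and at 26.3, 26.3 and 28.4 FPKM against 33.1, 34.1 and 33.0 FPKM in 293T. Its falls were 1.14-fold (adjusted p = 0.00548) and 1.24-fold (adjusted p = 2.93e-04). DNAJC19, an import motor subunit, did not pass (log2 fold changes -0.14 and -0.070). DNAJC28 fell in 293T (-0.23, adjusted p = 0.0263), a call lost in 9 of 24 alternatives. The medians of the mitochondrial members were -0.14 and -0.23. DNAJC30 and DNAJC11 were called lower in both lines under all 24 alternatives.

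Class C members of the nucleus, the ribosome and vesicle traffic had absolute log2 fold changes below 0.5 in both lines on the log2(FPKM + 1) scale. DNAJC17, a nuclear member linked to splicing, was at 0.744, 0.803 and 1.03 FPKM in exposed A549 against 1.26, 1.20 and 1.44 FPKM, and at 1.35, 1.12 and 1.42 FPKM in exposed 293T against 1.71, 1.96 and 2.07 FPKM. It fell 1.51-fold in A549 and 1.48-fold in 293T, and it overlaps 3 other genes. DNAJC2, the ribosome-associated member, rose 1.10-fold in each line, with the A549 call lost in 12 of 24 alternatives and the 293T call in 5. DNAJC8, a splicing factor, DNAJC9, a histone chaperone, and DNAJC21, a ribosome assembly factor, passed in neither line. In the traffic group DNAJC27, a small GTPase with a J domain, fell 1.59-fold in A549 (log2 fold change -0.32, adjusted p = 0.00832) and 1.43-fold in 293T (-0.26, adjusted p = 0.0273), the latter lost in 5 of 24 alternatives. DNAJC13, an endosomal member, fell in 293T alone (-0.18, lost in 4 of 24), DNAJC14 in both lines (-0.12 and -0.16, lost in 15 and 3 of 24), and the synaptic vesicle member DNAJC5 in neither. DNAJC6, the clathrin uncoating factor auxilin, rose in A549 from 1.43, 1.20 and 1.45 FPKM to 2.04, 1.78 and 1.66 FPKM (log2 fold change 0.26, adjusted p = 0.00453). DNAJC7, which links HSP70 and HSP90 through its tetratricopeptide repeats, rose in A549 from 47.7, 51.6 and 49.7 FPKM to 65.8, 62.0 and 57.5 FPKM (0.31, adjusted p = 4.28e-04), and in 293T the groups overlapped at 74.3 to 81.5 FPKM and 76.8 to 80.0 FPKM. DNAJC12, a partner of aromatic amino acid hydroxylases, fell in A549 (-0.24, adjusted p = 0.0213), lost in 6 of 24 alternatives. DNAJC22 fell in both lines (-0.15 and -0.13), lost in 5 and 8 of 24. DNAJC24, a diphthamide synthesis factor, and DNAJC4 passed in neither line, at 6.56 to 10.9 FPKM and 5.69 to 8.07 FPKM over the 12 libraries.

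The summed level of the 40 members was 1416 to 1780 FPKM in exposed A549 and 873 to 899 FPKM in its controls, 1.80-fold higher by the means. In 293T it was 1286 to 1408 FPKM against 980 to 996 FPKM, 1.37-fold higher. Class B accounted for 20.7% ± 0.226 of the sum in A549 controls and 34.6% ± 4.33 in exposed A549 (SD, n = 3), and for 18.3% ± 0.181 and 33.1% ± 2.84 in 293T. The class C sum was 318 to 325 FPKM in control and 322 to 336 FPKM in exposed A549, and 466 to 477 FPKM in control and 467 to 483 FPKM in exposed 293T, so its groups overlapped in both lines. DNAJB1 alone made up 6.89% ± 0.185 of the sum in A549 controls and 20.1% ± 5.45 in exposed A549, and 4.15% ± 0.0566 and 18.0% ± 2.43 in 293T. It moved from rank 8 to rank 2 among the members in 293T and was at rank 2 in both A549 groups. Without DNAJA1 and DNAJB1, the sum was 1.21-fold higher in exposed A549 and 1.09-fold higher in exposed 293T. No test was made of these sums.

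**Figure D4:**
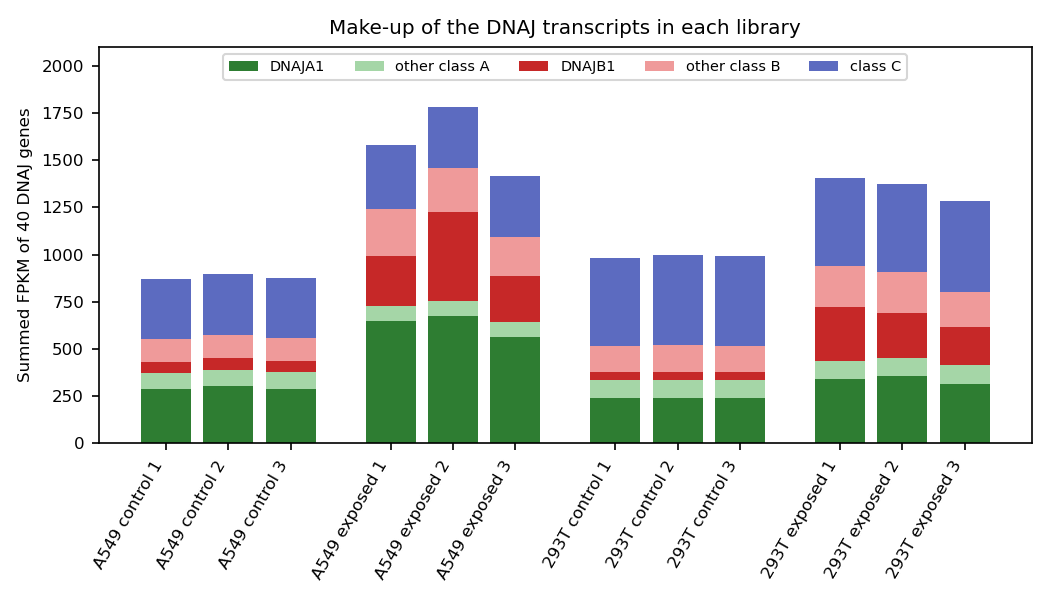
Stacked bars, starting at 0, of the summed FPKM of the 40 DNAJ genes in each of the 12 libraries, split into DNAJA1, other class A, DNAJB1, other class B and class C. The exposed bars reach 1286 to 1780 FPKM and the control bars 873 to 996 FPKM, and the class C part is of similar height in exposed and control libraries of a line.

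The difference between the effects in the lines was tested in the same fit, and 6 members passed, 16.2% of those tested against 12.5% of all genes. Of them 5 were higher in A549 minus 293T (5.51% of all genes) and 1 lower (7.03%), and 2 and 0 had an absolute difference of at least 0.5 (1.19% and 1.11% of all genes). DNAJA1 rose more in A549 by 0.59 (SE 0.085, adjusted p = 0.00135), DNAJB2 by 0.72 (SE 0.11, adjusted p = 0.00181), DNAJC7 by 0.31 (adjusted p = 0.0141) and DNAJB6 by 0.34 (adjusted p = 0.0208). DNAJC6 differed by 0.31 (adjusted p = 0.0339), a call lost in 9 of 23 alternatives. DNAJC1 rose more in 293T, by 0.23 on the same scale (difference -0.23, adjusted p = 0.0137). DNAJB4 had the largest difference of all members, 0.90 (SE 0.28), and did not pass (adjusted p = 0.0537), though it did in 8 of 23 alternatives. For DNAJB1 the difference was -0.19 (SE 0.27), for DNAJB9 -0.14 (SE 0.23) and for DNAJC3 -0.21 (SE 0.17), none of them past the threshold, and with these errors no equality of the rises is shown.

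The HSP70 chaperones that these co-chaperones serve changed as well. Of 10 HSP70 genes tested, 7 rose and 1 fell in A549 (median 0.89), and 5 rose and 0 fell in 293T (median 0.39). Of all genes tested, 13.3% rose and 26.9% fell in A549, and 13.7% rose and 24.2% fell in 293T. The cytosolic HSPA8 rose by 0.51 in A549 and 0.52 in 293T, and the ER partner HSPA5 by 1.28 and 1.39. HSPA9, the mitochondrial HSP70, rose by 0.081 in A549 (adjusted p = 0.0436) and had -0.043 in 293T (adjusted p = 0.280), and HSPA2 fell in A549 (-0.39). HSPA1A rose by 3.49 in A549 and 3.39 in 293T, and HSPA1B by 3.90 and 2.69, beside 2.34 and 2.53 for DNAJB1. HSPA6 rose by 6.58 and 3.05. HSPA1A and HSPA1B are near-identical copies, and reads may be split between them. Relative to HSPA8 alone, DNAJB1 went from a ratio of 0.0555 ± 0.000617 in A549 controls to 0.207 ± 0.0717 in exposed cells. In 293T this ratio went from 0.0361 ± 0.000218 to 0.149 ± 0.0208 (SD, n = 3). The summed FPKM of HSPA1A, HSPA1B, HSPA1L, HSPA2, HSPA6 and HSPA8 was 2.37-fold higher in exposed A549 and 2.31-fold higher in exposed 293T. Of 14 nucleotide exchange factors, which release ADP from HSP70, 7 rose and 3 fell in each line, with BAG3 up by 2.27 and 1.57, HSPH1 by 2.08 and 1.00, and BAG1 at -0.50 and -0.24. The share of these factors that fell, 21.4% in each line, was near that of all genes. Of 7 other co-chaperones 5 rose and 1 fell in each line, with CHORDC1 up by 1.39 and 0.72 and the ubiquitin ligase STUB1 at -0.15 and -0.17. Of 4 J-domain genes outside the name pattern 0 rose and 2 fell in each line, with GAK, a relative of auxilin, at -0.16 and -0.21, and SEC63 passed in neither. The share that fell, 50% in each line beside 26.9% and 24.2% of all genes, rests on 4 genes and was not tested. Among 3 heat shock factor genes and HSBP1, which encodes a factor-binding protein, HSBP1 rose by 0.23 in A549 and 0.19 in 293T and HSF2 fell by 0.46 and 0.27. HSF4 had -0.42 in A549 (adjusted p = 0.00181) and -0.17 in 293T (adjusted p = 0.136), and HSF1 had -0.099 (adjusted p = 0.0535) and -0.14 (adjusted p = 0.0138).

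Without exposure, the lines differed in most members, a share no larger than that of all genes. In A549 controls 10 members were higher and 20 lower than in 293T controls, 81.1% of the tested members against 88.3% of all genes (32.4% higher and 55.9% lower). With a log2 difference of at least 0.5 they were 5 and 9 of the 37 tested members, smaller shares than the 21.6% and 37% of all genes. DNAJC22 was at 9.85, 10.5 and 10.3 FPKM in A549 and 1.99, 1.85 and 2.02 FPKM in 293T, 5.22-fold higher in A549 (log2 difference 1.92, SE 0.04, adjusted p = 1.83e-13). DNAJC8 was at 40.9, 47.0 and 42.1 FPKM in A549 against 130, 127 and 134 FPKM in 293T, 3.00-fold lower (-1.57, SE 0.05). DNAJC6 was at 1.43, 1.20 and 1.45 FPKM against 6.35, 6.76 and 6.43 FPKM, 4.79-fold lower (-1.67, SE 0.06). DNAJC28, which passed the filter only through 293T and so had to differ, was at 0.353, 0.212 and 0.226 FPKM in A549 against 2.17, 2.07 and 2.18 FPKM. The import motor subunit DNAJC19 was 2.35-fold and DNAJC18 2.81-fold lower in A549, while DNAJB9 was 1.80-fold, DNAJC12 1.69-fold and DNAJB1 1.48-fold higher. DNAJB2, DNAJB4, DNAJB11 and DNAJC3, which rose on exposure in both lines, did not pass between the controls (adjusted p from 0.0797 for DNAJB11 to 0.802 for DNAJB4). DNAJB2 passed in 4 of 23 alternatives, among them quantile normalization (adjusted p = 0.0101), and DNAJB11 in 3 of 23, among them the TPM scale (adjusted p = 0.00524). The median log2 difference of all genes between the controls was -0.25, and it moved to -0.15 after quantile normalization and -0.41 on the TPM scale, where 6 members were higher and 21 lower.

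**Figure D5:**
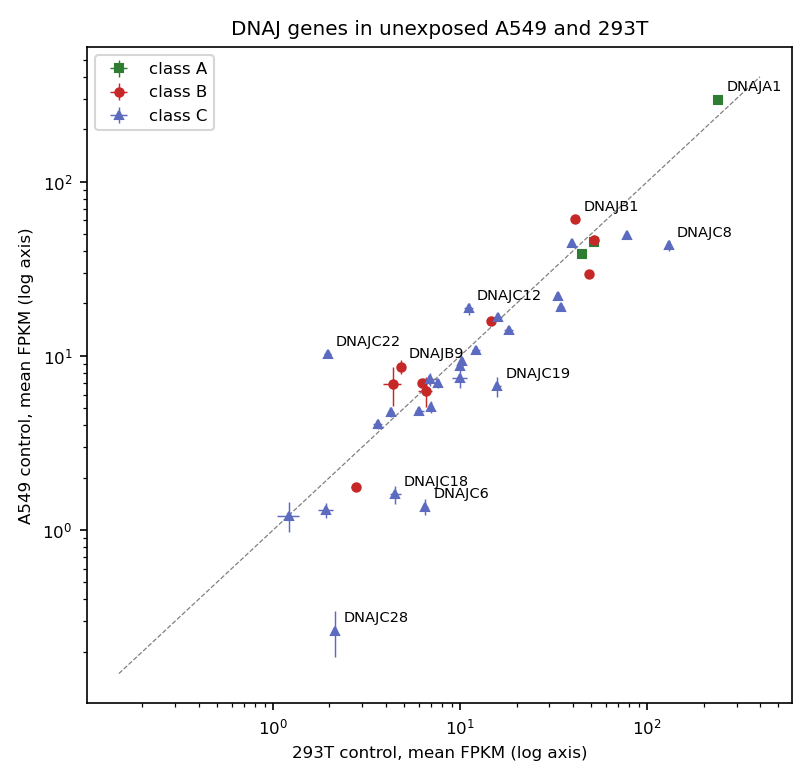
Mean FPKM of the 37 tested members in unexposed 293T (x axis) and A549 (y axis), both on log axes, with bars of 1 SD over 3 libraries and a dashed line of equal level. DNAJC22 lies above the line, DNAJC28, DNAJC6, DNAJC8, DNAJC18 and DNAJC19 lie below it, and DNAJA1 is the highest in both lines.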

How the data were processed

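Oligo(dT)-enriched mRNA was sequenced, with 3 libraries in each of 4 groups, per the labels' protocols. The authors deposited FPKM values made with fastp, HISAT2 and HTSeq on GRCh38, per the submitters' processing notes; versions and strand setting are not given in the sources used here. Because FPKM divides by a library's counted fragments, abundant transcripts that rise push other values down. From these values whole counts were recovered for 100% of the 24078 genes above 0 in at least 2 libraries, within 0.01 counts, and used for depth and 1 alternative. After a filter of 0.5 FPKM in 3 or more libraries (13811 genes kept, 12537 removed), log2(FPKM + 1) was modelled by limma 3.58.1 under R 4.3.3 with a mean for each group, an intensity trend and 8 residual degrees of freedom, and p-values were two-sided with Benjamini-Hochberg adjustment. Identical library columns numbered 0. The main fit did not pair libraries by replicate number.

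Members, role lists and alternatives were chosen with earlier results of these data known. Members were named with their values where they passed the threshold with an absolute log2 fold change of at least 0.5 in a line, passed in opposite directions (0 members), passed for the difference between the lines, or passed between the controls at 1.5 or more; other members are given by role. Alternatives comprised omitting the filter, a pseudocount of 0.1, requiring a mean of 1 FPKM, quantile normalization, TPM, median centring, a sum without the 13 mitochondrially encoded genes, no variance trend, each line alone, a replicate block, limma-voom on recovered counts, and libraries left out. Promoter windows, overlaps and pseudogenes were read from RefSeq (GRCh38.p14) with Python 3.11.15 and pandas 2.3.3.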

Additional observations from a re-analysis of the deposited data

Results flagged for a closer look

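For 6 members the effect of exposure differed between the lines by the test of the difference itself (A549 minus 293T, log2(FPKM + 1) scale, limma with Benjamini-Hochberg adjustment). The difference was 0.72 for DNAJB2, 0.59 for DNAJA1, 0.34 for DNAJB6, 0.31 for DNAJC7 and 0.31 for DNAJC6. It was -0.23 for DNAJC1. In DNAJC7 and DNAJC6 the A549 effect passed and the 293T effect was -0.00071 and -0.048, and in DNAJC1 the 293T effect passed (0.26) and the A549 effect was 0.033. DNAJB6 lost its call without the filter (adjusted p = 0.0562) and without replicate 3 of the A549 controls (adjusted p = 0.0542).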

How the results depend on the processing

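Of the members' calls, 11 of 13 rises and 4 of 8 falls in A549, and 10 of 11 rises and 3 of 9 falls in 293T, were kept in all 24 alternatives, and 0 turned to the opposite direction. Demanding an absolute log2 fold change of at least 0.5 in the main fit left 8 rises and 0 falls in A549. It left 4 rises and 0 falls in 293T, 2 higher and 0 lower for the difference, and 5 higher and 9 lower between controls. The falls of DNAJC17 and DNAJC27 went past 0.5 in both lines among the alternatives. The falls in A549 numbered 5 after quantile normalization, 4 after median centring, and 5 with each line fitted alone, and in 293T 5 after quantile normalization. The members with a larger effect in A549 numbered 3 without the filter, and those with a larger effect in 293T 2 with a mean of at least 1 FPKM, with the sum without mitochondrial genes, with limma-voom and without replicate 3 of both exposed groups. On the TPM scale 6 members were higher in A549 controls. Leaving out 1 library gave 5 to 8 falls in A549 (5 without exposed replicate 2, control replicate 2 or control replicate 3), 5 to 10 in 293T (5 without exposed replicate 1, control replicate 1 or control replicate 3), 1 to 2 members with a larger effect in 293T, and 7 to 11 higher in A549 controls. The class A median in A549 was 0.041 after median centring and -0.053 with the sum without mitochondrial genes. The class C median in A549 was -0.065 after quantile normalization, -0.034 after median centring and -0.12 with the sum without mitochondrial genes, and ran from -0.098 to -0.067 with 1 library left out. In 293T it was -0.035, -0.042 and -0.092 under these scalings and ran from -0.083 to -0.036. The cause of these shifts was not tested. With the replicate block, 11 members rose and 8 fell in A549 and 11 and 10 in 293T. Same-numbered exposed and control libraries deviated from their group means with correlations of -0.141 to 0 across genes. For same-numbered exposed libraries of A549 and 293T the correlations were -0.031, -0.008 and 0.217 for replicates 1, 2 and 3. Low members such as DNAJC17, DNAJC27 and DNAJC28 rest on 13 to 426 counts per library.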
